A study of Danio rerio with 9 samples.

Results

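Impurity R is one of the azithromycin impurities, and its effect on the larval zebrafish liver is described here from the list of genes that changed against the vehicle, DMSO. The members were all rows of the pathway table deposited for impurity R and every gene that those rows name, matched by Entrez identifier. The table held 889 terms of 3 databases (125 KEGG, 709 Reactome and 55 PANTHER terms) and 405 genes, of 1154 genes named in the tables of any of the 8 compounds (35.1%). Of these 405 genes, 212 were listed as upregulated (18.4% of the 1154) and 193 as downregulated (16.7% of the 1154).

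Larvae of the wild-type AB strain were kept from 3 dpf (days postfertilization) in impurity R, azithromycin, or impurity J, I, Q, L, S or F, each at 2 mM, or in DMSO, and livers were dissected 72 h later, at 6 dpf. RNA-seq was made from 1 library per condition, 9 libraries in all, and every compound was set against the same DMSO library. All groups shared the strain, the age and the exposure time, and how many larvae were pooled per library is not given in the sources used here. The impurities are named by code letters, and their structures are not compared here.

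With 1 library per condition there was no replicate error, no test could be made, and each gene is described by its listed direction alone. The table gives no size of change, no expression level and no read number, so the depth is unknown. A gene that belongs to no pathway of the databases could not be listed, and a gene that is not listed is not shown to be unchanged. In whole dissected livers, fewer cells of a type and less RNA per cell cannot be told apart.

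Azithromycin is a macrolide antibiotic, a class that binds the bacterial ribosome and stops the growing protein chain. The liver takes up drugs from the blood, modifies them with cytochrome P450 and conjugating enzymes, and exports them with ABC transporters into bile. Hepatocytes make the plasma proteins, hold large stores of lipid and sugar, and therefore run protein synthesis, mitochondrial metabolism and membrane traffic at high rates.

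The 405 genes were spread over many functions. KEGG rows held 298 of them, Reactome rows 239 and PANTHER rows 25, and a gene stood in a median of 4 terms. The terms overlapped strongly, since the 889 terms came to 475 distinct sets of genes and 342 terms (38.5%) held only 1 listed gene. Some genes were repeated across the table. The kinase gene mapk3 (upregulated, Entrez 399480) stood in 164 terms, and the proteasome subunit genes psma1 and psma2 (both upregulated, 156 terms each) and psmb2 and psmb7 (both downregulated, 155 terms each) came next. In 155 terms these 4 proteasome genes stood together, and 1 identical set of 11 genes filled 22 terms. The number of terms is therefore not a number of separate changes.

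The other genes of most terms were signaling genes. The calcium/calmodulin-dependent kinase camk2d1 stood in 88 terms, the adaptor shc1 in 82, the Ras exchange factor rasgrf1 in 70, the spectrin sptbn5 in 69, the small GTPase rhoab in 62 and the kinase camk4 in 42, and all 6 were downregulated. The growth factor pdgfba (Entrez 798657, with no symbol in the table and named here from RefSeq) stood in 86 terms, the receptor phosphatase ptpra in 61, the F-box gene fbxw11b in 50 and the G protein subunit gnb3b in 48, and all 4 were upregulated.

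Over whole KEGG terms, the directions were mixed in most of them. Of 31 KEGG terms with at least 8 listed genes, 13 had more upregulated than downregulated genes, 12 had more downregulated genes and 6 were even. The broadest term, metabolic pathways, was split evenly, with 31 upregulated and 31 downregulated genes, and endocytosis held 14 of each. The largest surpluses were those of RNA transport, with 10 upregulated genes and 1 downregulated gene, and of the ribosome, with 3 upregulated and 13 downregulated genes. Over all databases, 8 terms had at least 8 listed genes of which at least 80% shared 1 direction. Of these, 6 held at least 5 cytosolic ribosomal proteins, and the others were RNA transport and pyrimidine metabolism. Pyrimidine metabolism held 8 listed genes, the minimum of the rule.

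**Figure D1:**
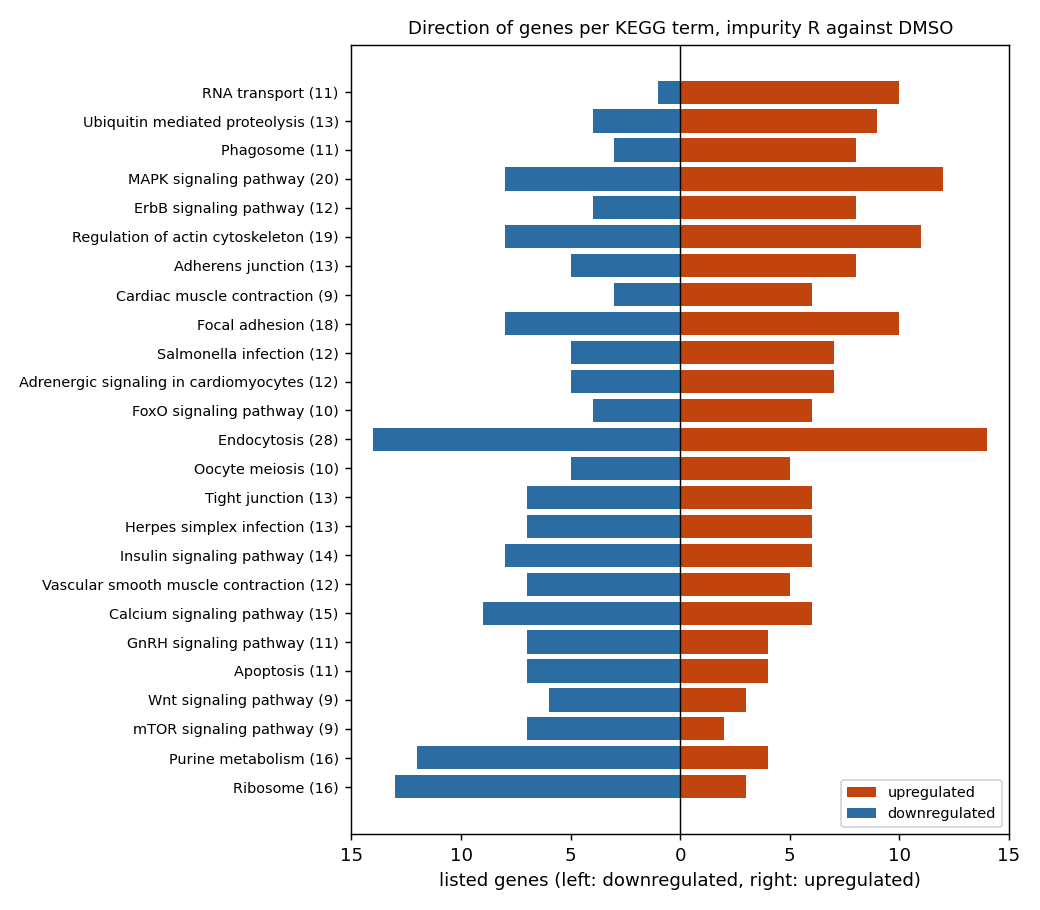
Number of genes listed for impurity R against DMSO in each KEGG term with at least 9 listed genes (metabolic pathways left out), with upregulated genes to the right of 0 and downregulated genes to the left. Numbers in brackets are listed genes per term. RNA transport stands at the top with 10 upregulated genes and 1 downregulated gene, and the ribosome at the bottom with 3 and 13.

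A term was called leading when it held at least 5 listed genes and its listed share of background genes was at least 2 times the share over all gene and term pairs of its database. That overall share was 6.89% for KEGG (716 of 10387 pairs), 7.47% for Reactome (2940 of 39378) and 6.42% for PANTHER (92 of 1434). By this rule 22 terms led. Of these, 15 held at least 5 cytosolic ribosomal proteins and were largely the same genes seen under different names. The other 7 held none of them, and were pyruvate metabolism, ABC transporters, adherens junction and Salmonella infection in KEGG, the integrin signalling pathway in PANTHER, and pyruvate metabolism with the citric acid cycle and clathrin cargo recognition in Reactome.

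Among the leading KEGG terms, the ribosome had the most one-sided genes. The term listed 16 of its 112 background genes, a share of 14.3% and 2.07 times the database share. Ribosomal proteins form the small and the large subunit that decode mRNA and join amino acids. In the small subunit, rps2, rps8a, rps12, rps18, rps19 and rps27.2 were all downregulated. In the large subunit, rpl10, rpl17, rpl21, rpl22l1, rpl29 and rpl34 were downregulated, and rpl7a and rpl26 were upregulated. In all, 2 cytosolic ribosomal protein genes were upregulated and 12 downregulated, of 34 listed for any compound. The mitochondrial ribosome, which makes the proteins encoded in mitochondrial DNA, added mrpl19 (upregulated) and mrpl11 (downregulated).

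The same ribosomal proteins carried the Reactome terms on translation. The term for protein targeting by the signal recognition particle listed 12 of 70 background genes (17.1%), 2 upregulated and 10 downregulated. Both rRNA processing and translation listed 16 genes, with 4 upregulated and 12 downregulated genes for rRNA processing and 5 and 11 for translation. The genes that made the translation term less one-sided than the ribosome were initiation factors. These were the RNA helicase eif4a2 and its helper eif4h, and eif5, which acts at start codon selection, all upregulated. The start codon factor eif1b (Entrez 393273, named from RefSeq) was upregulated too, in KEGG RNA transport.

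Few genes of elongation and ribosome assembly were listed. The elongation factor eef1a1a was downregulated. The KEGG term on ribosome biogenesis listed 5 of 65 genes (7.69%, close to the database share). In this term, which covers the steps that build subunits in the nucleolus and ripen them in the cytosol, mdn1, nol6, riok2 and eftud1 were downregulated and ran was upregulated. Outside it, nol9 and dhx37, which also act in ribosomal RNA processing, were upregulated. The subunits of RNA polymerase I, which transcribes ribosomal RNA, were downregulated as well (polr1a and polr1e).

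Genes of RNA transport, a term that holds translation factors as well as genes of nuclear export, were listed mostly in the upward direction. KEGG RNA transport listed 11 of 131 genes (8.40%, 1.22 times the database share), so it was not a leading term by size. The nuclear pore proteins nup188, nup50 and aaas and the GTPase ran, which drives transport through the pore, were upregulated. So were smn1, a factor in the assembly of splicing particles, acin1a, a component of the exon junction complex, and the poly(A)-binding protein pabpc1a. The only downregulated gene of the term was eef1a1a. The mRNA surveillance term held 6 upregulated genes (acin1a, dazap1, msi1, msi2b, pabpc1a and sympk) and 1 downregulated gene, the poly(A) polymerase papola. Splicing itself was divided, since lsm7, prp19, snrpb2 and acin1a were upregulated and the SR proteins srsf1a, srsf2a and srsf3b, which bind exons, were downregulated.

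**Figure D2:**
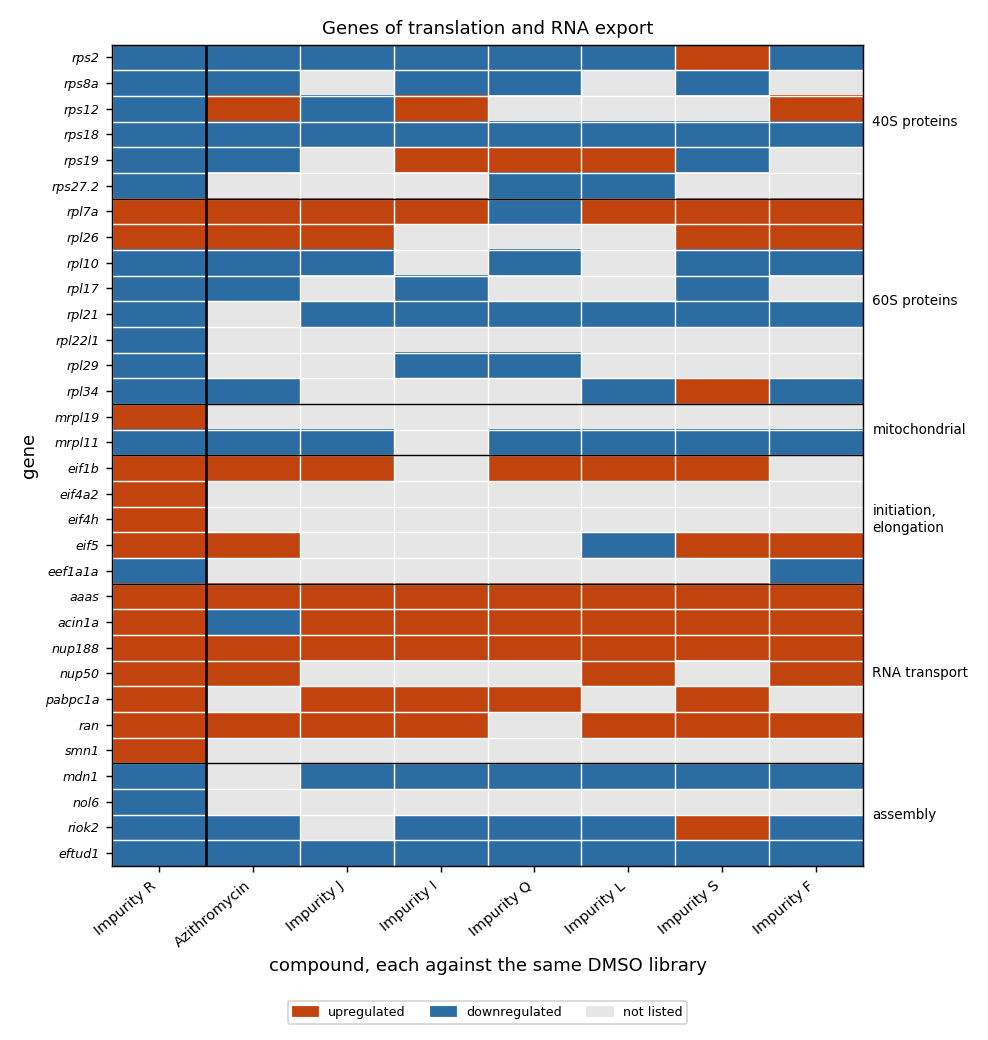
Listed direction of genes of the ribosome, initiation and elongation, RNA transport and ribosome assembly (rows) for impurity R in the first column and for azithromycin and 6 other impurities, each against the same DMSO library. Orange marks upregulated, blue downregulated and grey not listed. In the impurity R column 12 of 14 cytosolic ribosomal proteins are blue, while the rows of RNA transport are orange.

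The other compounds are set beside impurity R only as values, because all shared the DMSO library. For the KEGG ribosome, impurity R had 3 upregulated and 13 downregulated genes. Azithromycin had 10 upregulated and 11 downregulated genes. Among the remaining impurities, J had 5 and 6, I had 10 and 7, Q had 6 and 11, L had 6 and 8, S had 9 and 9, and F had 6 and 7. Among single genes, rps18 was downregulated for impurity R and for all 7 other compounds. By contrast, rps12 was downregulated for impurity R and impurity J and upregulated for azithromycin and impurities I and F. The gene rps19 was downregulated for impurity R, azithromycin and impurity S and upregulated for impurities I, Q and L. The genes rpl22l1, mrpl19, eif4a2, eif4h, smn1 and nol6 were listed in none of the other tables. For RNA transport, impurity R had 10 upregulated genes and 1 downregulated gene, and the other compounds had between 7 and 9 upregulated and between 1 and 5 downregulated genes. These differences were not tested.

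Nucleotide metabolism was mostly downregulated. Purine metabolism listed 16 of 162 genes (9.88%, against 6.89% for KEGG as a whole), 4 upregulated and 12 downregulated, and pyrimidine metabolism 8 of 94 genes (8.51%), 1 upregulated and 7 downregulated. The downregulated genes covered the first step (prps1a, which makes the activated ribose), the kinases that add phosphates (ak1, guk1a and nme3), enzymes that remove or clear nucleotides (nt5c2b, ampd3b, cant1b, nudt5 and dctpp1), a phosphodiesterase subunit (pde6g) and both RNA polymerase I subunits. The upregulated genes were gda, which deaminates guanine, the natriuretic peptide receptor npr1a, adprm and a copy of the ribonucleotide reductase subunit rrm2.

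The symbol rrm2 was carried by a pair of identifiers with opposite directions. Entrez 30733, named rrm2l in RefSeq, was upregulated, and Entrez 100330864, which had no match in RefSeq, was downregulated. Reads of near-identical copies can be split between them in counting, so neither direction is certain. Both identifiers are counted in purine and in pyrimidine metabolism, so the terms are not separate sets of genes. Pyrimidine metabolism held 8 listed genes, the minimum for a one-way term, so its place among those terms is uncertain too. For purine metabolism, impurity R had 4 upregulated and 12 downregulated genes, and azithromycin had 8 and 7. The other impurities had 3 and 5 (J), 6 and 8 (I), 3 and 7 (Q), 4 and 6 (L), 3 and 5 (S), and 6 and 7 (F), so all 6 had more downregulated genes too. For pyrimidine metabolism, impurity R had 1 and 7, and azithromycin had 4 and 4. The other impurities had 1 and 4 (J), 3 and 3 (I), 1 and 4 (Q), 2 and 3 (L), 0 and 3 (S), and 3 and 4 (F).

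**Figure D3:**
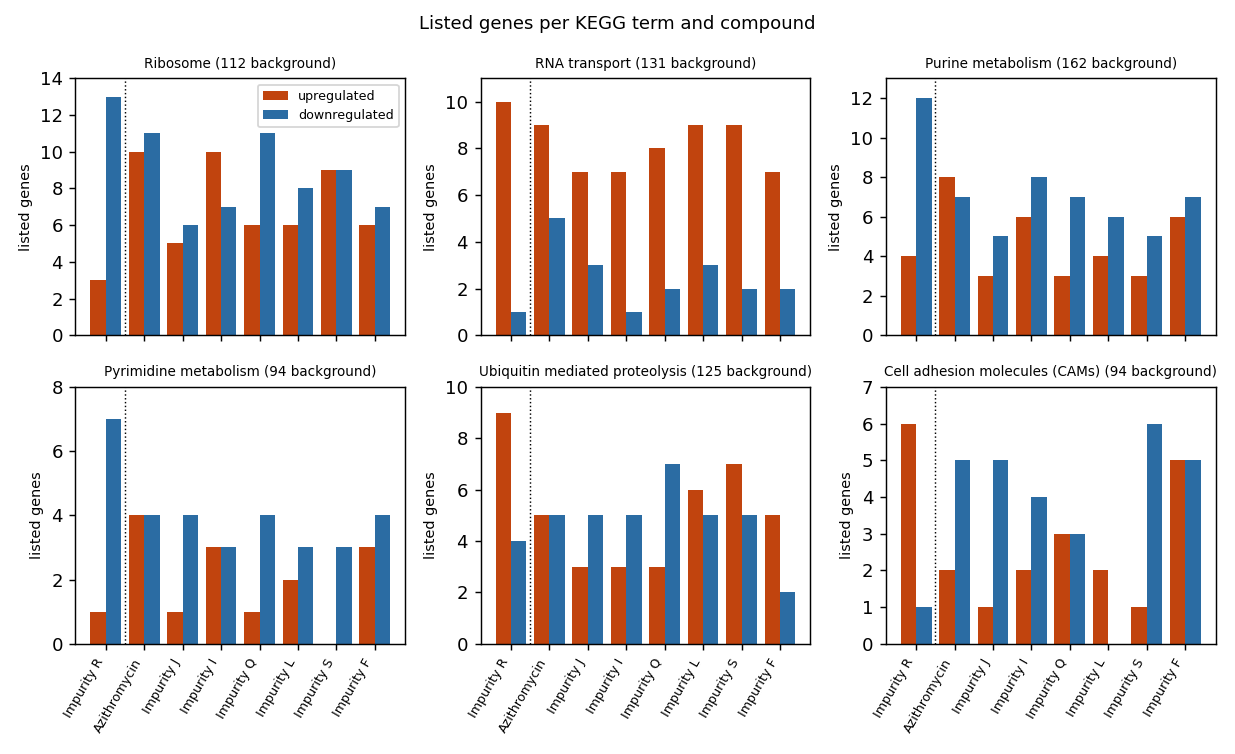
Listed genes in 6 KEGG terms for impurity R (left of the dotted line) and the other 7 compounds, with upregulated genes as orange bars and downregulated genes as blue bars. For impurity R the ribosome has 3 upregulated and 13 downregulated genes, purine metabolism 4 and 12, and cell adhesion molecules 6 and 1.

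Energy metabolism was listed at several steps. The Reactome term on pyruvate metabolism and the citric acid cycle held 6 of 30 background genes (2.68 times the database share), 4 upregulated and 2 downregulated. Upregulated were ldhbb, a lactate dehydrogenase, and 3 parts of enzymes of the citric acid cycle (idh3g of isocitrate dehydrogenase, sucla2 of succinyl-CoA synthetase and sdhc of succinate dehydrogenase). Downregulated were hagh, which clears methylglyoxal adducts of glutathione, and ppardb, a nuclear receptor that responds to fatty acids. For the same term, azithromycin had 1 upregulated and 4 downregulated genes, and the other impurities had 0 and 2 (J), 2 and 1 (I), 1 and 3 (Q), 1 and 3 (L), 1 and 4 (S), and 0 and 4 (F). KEGG pyruvate metabolism was even for impurity R, with 3 upregulated and 3 downregulated of 37 genes (16.2%). Impurity L also had 3 and 3, and impurity I had 5 and 1. Azithromycin had 2 and 4, J 1 and 3, Q 2 and 5, S 3 and 5, and F 2 and 7. The share ran from 10.8% for impurity J to 24.3% for impurity F. In the respiratory chain, cyc1, sdhc and cox5ab were upregulated, and no gene of the oxidative phosphorylation list was downregulated, of 10 listed for any compound. The cox5ba gene, which the table carries under its older symbol hm, was downregulated and stood outside that list. In the cytosol, the malate enzymes mdh1aa and me1 were downregulated.

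Lipid genes were listed in both directions. The carboxylase acaca, which makes malonyl-CoA for fatty acid synthesis, was upregulated, as were cpt2, which brings fatty acids into mitochondria for oxidation, the acyl-CoA synthetase acsl5, and hsd17b12a of fatty acid elongation. Downregulated were me1, which supplies NADPH, lpin1, which makes diacylglycerol, and slc27a2b, a fatty acid carrier. Of the fatty acid oxidation list, 2 genes were upregulated and 0 downregulated, of 9 listed for any compound. Of the lipogenesis list, 1 was upregulated and 2 were downregulated, again of 9. No gene of cholesterol synthesis was listed for impurity R, of 2 listed for any compound.

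Transport and drug handling were also mixed. KEGG ABC transporters listed 5 of 31 genes (16.1%, 2.34 times the database share). The bile salt export pump abcb11a (Entrez 797269), the cholesterol exporter abca1a and the drug and glutathione conjugate exporter abcc1 were downregulated, and abcg2a and abcc10 were upregulated. The abcb11a direction was shared by impurities J and I, while azithromycin and impurities Q, S and F listed it as upregulated. The abcc1 gene was downregulated for impurity R and for all 7 other compounds. The receptor for high-density lipoprotein, scarb1, was upregulated and was in no other table. Of the cytochromes P450, cyp3c3, cyp27a1.4 and cyp46a1.3 were upregulated, while porb, which passes electrons to many but not all P450 enzymes, was downregulated. The glutathione transferase gsto2 was upregulated and the quinone reductase nqo1 downregulated. Of the xenobiotic list, 2 genes were upregulated and 1 was downregulated, of 11 listed for any compound.

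Other functions of hepatocytes gave few listed genes. The fibrinogen chain fgb was upregulated, as it was for every other compound except impurity I, where it was downregulated. The complement gene c3a.3, the glucose-6-phosphatase g6pca.1, which releases glucose, and tdo2a and prodha, which start the breakdown of tryptophan and proline, were downregulated, and hgd of tyrosine breakdown was upregulated. Of the 23 hepatocyte markers, 5 were listed for any compound and only fgb for impurity R. The liver fatty acid-binding protein fabp10a was in none of the tables, so the labelled tissue could not be checked by the level of its defining markers. The clock genes nr1d1 and per1b were both upregulated, and they were the 2 clock genes listed for any compound.

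Growth factor signaling was listed from receptor to kinase. In this cascade, ligands bind receptor tyrosine kinases, adaptors recruit Ras activators, and RAF, MEK and ERK kinases pass the signal to transcription factors such as the AP-1 family. The ligands pdgfba and bdnf were upregulated, and so were the receptors egfra and erbb3b. The adaptor shc1, the Ras exchange factor rasgrf1 and the RAF kinases raf1a and araf were downregulated. The kinase mapk3, the stress kinase kinase map2k4a and the scaffold mapk8ip1 were upregulated. The kinases activated by ERK, mknk1 and rps6ka1, and the atypical kinase mapk6 were downregulated. Of the MAP kinase list, mapk3 and map2k4a were among the upregulated genes, and raf1a, araf, mknk1 and rps6ka1 were the 4 downregulated genes.

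At the end of the cascade, the AP-1 member fosaa and the stress factor atf4a were downregulated and mef2cb was upregulated. The fosaa gene was otherwise listed only for impurity L, where it was upregulated. Of the AP-1 list, 0 genes were upregulated and 1 was downregulated, of 5 listed for any compound, and fosab was not listed for impurity R. The study itself reports fosab as upregulated for impurity R, by RNA-seq and by qRT-PCR. The fosab gene was listed as upregulated for azithromycin and impurity L and for no other compound, so the databases do cover it. The listed genes and the study's report therefore differ for impurity R, and the reason was not tested. The absence of fosab here is no sign that it was unchanged. No gene of the immediate-early list was listed either, of 5 listed for any compound.

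In KEGG the MAPK term held 12 upregulated and 8 downregulated genes of 269, a share of 7.43%, close to the 6.89% of all KEGG pairs. Azithromycin had the same 12 and 8, and the other impurities had 7 and 9 (J), 12 and 6 (I), 8 and 12 (Q), 14 and 9 (L), 11 and 6 (S), and 8 and 13 (F). The ErbB term held 8 upregulated and 4 downregulated genes of 94 (12.8%). Set beside these 8 and 4 ErbB genes of impurity R, azithromycin had 6 and 7. The other impurities had 3 and 6 (J), 7 and 2 (I), 2 and 7 (Q), 4 and 7 (L), 4 and 5 (S), and 5 and 7 (F). The gene mapk3 was in none of the other tables. The direction of shc1 for impurity R was found again only for impurity Q, and azithromycin and impurities J, I, L and F listed it as upregulated.

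The mTOR term, which joins nutrient and growth signals to protein synthesis, listed 9 of 163 genes (5.52%, below the 6.89% of KEGG as a whole), 2 upregulated, mapk3 among them, and 7 downregulated. Azithromycin had 1 upregulated and 9 downregulated genes in this term, and the other impurities had 1 and 8 (J), 2 and 5 (I), 2 and 7 (Q), 5 and 6 (L), 5 and 7 (S), and 2 and 12 (F). Among the downregulated genes were tsc1a and tsc2, which form the complex that holds mTOR in check, and the kinase stk11, which activates AMPK. The others were wdr59, which belongs to a complex upstream of mTOR, and raf1a, rps6ka1 and rhoab. The stk11 gene was in no other table. Calcium signaling held 6 upregulated and 9 downregulated genes of 197 (7.61%). Its downregulated genes included the calcium release channel itpr3, the kinases camk2d1 and camk4 and the exchanger slc8a2b, and its upregulated genes included ryr1a and the pump atp2b2. Of the calcineurin subunits, ppp3ccb was upregulated and ppp3cb downregulated.

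Cell adhesion and the cytoskeleton made up the next group. KEGG adherens junction listed 13 of 87 genes (14.9%, 2.17 times the database share), 8 upregulated and 5 downregulated. On the side of adhesion receptors, the epithelial cadherin cdh1, the integrins itga6b and itgb1a, the receptor phosphatase ptprfa, cd99l2 and cntnap2a were upregulated. Another cadherin, cdh11, and another receptor phosphatase, ptprb, were downregulated. The catenin ctnna2, which links cadherins to actin, was upregulated. Of the tight junction, the scaffold tjp1b and the membrane protein oclna were downregulated. Of the actin machinery beneath the membrane, actb1, actn1, vaspb and rhoab were downregulated, and the kinases ptk2ab and rock2b were upregulated. The Salmonella infection term (7 upregulated and 5 downregulated of 82 genes) and the integrin term (2 and 3 of 35 genes, 14.3%) drew on the same actin and MAP kinase genes.

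The KEGG term on cell adhesion molecules listed 7 of 94 genes (7.45%, close to the 6.89% of all KEGG pairs). It met neither the leading nor the one-way rule and is given as values. In this term, impurity R had 6 upregulated genes and 1 downregulated gene. Azithromycin had 2 upregulated and 5 downregulated genes. The other impurities had 1 and 5 (J), 2 and 4 (I), 3 and 3 (Q), 2 and 0 (L), 1 and 6 (S), and 5 and 5 (F). The cdh1 gene was listed for impurity R and impurity F as upregulated and for impurity J as downregulated, and ctnna2 and vaspb were in none of the other tables.

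**Figure D4:**
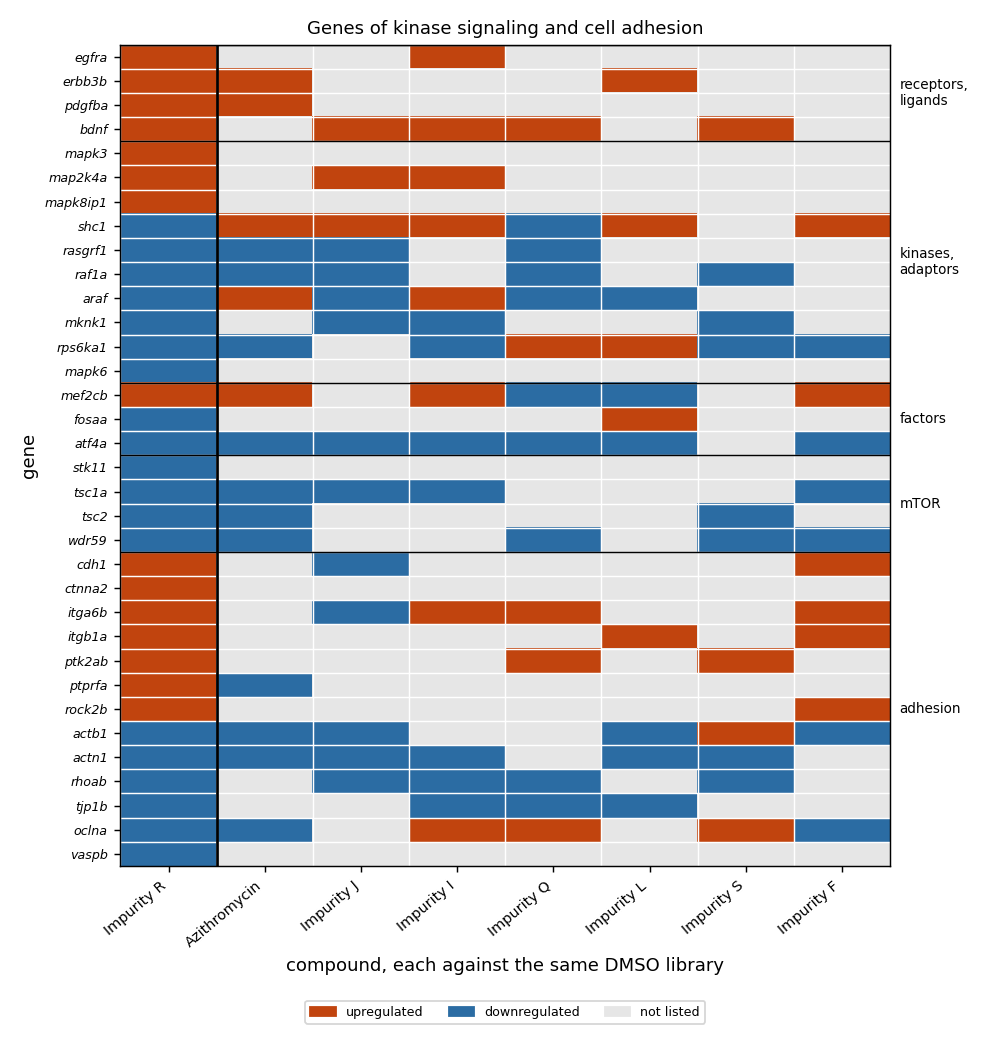
Listed direction of genes of growth factor and MAP kinase signaling, mTOR signaling and cell adhesion (rows) for impurity R in the first column and for the other 7 compounds, each against the same DMSO library. Orange marks upregulated, blue downregulated and grey not listed. In the impurity R column the ligands, the receptors and mapk3 are orange, and shc1, rasgrf1, raf1a, araf, mknk1 and rps6ka1 are blue.

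Membrane traffic was listed at the plasma membrane and in endosomes. Endocytosis was the largest KEGG term after metabolic pathways, with 28 of 285 genes (9.82%). At the clathrin coat, the heavy chain cltcb, the adaptor subunit ap2m1a and the cargo adaptor dab2 were downregulated, whereas the adaptor eps15 and the transferrin receptor tfr1a, an iron uptake receptor carried by this route, were upregulated. The leading Reactome term on clathrin cargo recognition (6 of 40 background genes, 2.01 times the database share) held cltcb, ap2m1a, eps15 and tfr1a, with the receptor kinase adrbk2 downregulated and the vesicle calcium sensor syt1b upregulated. In early endosomes rab5aa was upregulated. Of the ESCRT machinery, which sorts receptors for degradation, vps4b and ist1 were upregulated and vps28 was downregulated. The SNARE proteins vamp1, sec22bb, gosr1 and stx10, which fuse vesicles with membranes, were all upregulated. The phagosome term listed 11 of 130 genes (8.46%, against 6.89% for KEGG as a whole), 8 upregulated and 3 downregulated. All 7 other compounds also had more upregulated than downregulated genes of this term.

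In protein degradation, KEGG ubiquitin mediated proteolysis listed 9 upregulated and 4 downregulated genes of 125 (10.4%, against 6.89% for KEGG as a whole). Most of the upregulated genes were ligases or their parts (cul4b, prp19, trim32, birc2, cblc, pias1b, herc1 and fbxw11b), with the conjugating enzyme cdc34a. The downregulated genes included the activating enzyme uba1 at the head of the pathway, the conjugating enzyme ube2e1 and ddb2, a DNA damage receptor. In the proteasome, the outer ring subunits psma1, psma2 and psma6a were upregulated, and the inner ring subunits psmb2 and psmb7 and the cap subunit psmd1 were downregulated. The list thus held 3 upregulated and 3 downregulated genes, of 11 listed for any compound. For ubiquitin mediated proteolysis the other compounds had between 3 and 7 upregulated genes and between 2 and 7 downregulated genes.

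Genes of cell division, death and immunity were listed in both directions. KEGG cell cycle listed 8 of 126 genes (6.35%), 6 upregulated and 2 downregulated. KEGG apoptosis listed 11 of 149 genes (7.38%), 4 upregulated and 7 downregulated. Both shares were close to the 6.89% of KEGG as a whole. The replication and mitosis genes cdc7, orc5, ttk and smc1al and the inhibitor cdkn2c were upregulated, and pkmyt1 and tfdp2 were downregulated. The apoptosome component apaf1 was upregulated and was in none of the other tables, and the death receptor hdr was downregulated. Of the innate immune list, tlr5b, a receptor for flagellin, and the cytokine receptor kinase tyk2 were upregulated and 0 genes were downregulated, of 10 listed for any compound. In cytosolic DNA sensing, the sensor mb21d1 was upregulated and its downstream partner tmem173 was downregulated. Of the chaperone list, cct6a and hspd1 were upregulated, of 7 listed for any compound. In the endoplasmic reticulum, ganab, which trims glycans of new proteins, was downregulated for impurity R and for all 7 other compounds.

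Genes of skeletal muscle stood among the listed genes of these dissected livers. Of 69 muscle markers, 14 were listed for any compound, and for impurity R 2 were upregulated (ryr1a and smyhc1) and 5 were downregulated (tnnt1, tnnt3b, mylz3, mylpfa and tpma). The slow myosins smyhc1 and smyhc2, near-identical genes, had opposite directions, so their directions are uncertain. The Reactome term on striated muscle contraction had 0 upregulated and 4 downregulated genes for impurity R, and 1 and 8 for azithromycin. The other impurities had 2 and 3 (J), 1 and 5 (I), 0 and 5 (Q), 0 and 4 (L), 1 and 3 (S), and 1 and 4 (F), so every compound had more downregulated than upregulated genes of this term. Over the 69 muscle markers, the direction differed between compounds. Azithromycin had 4 upregulated and 4 downregulated markers. Impurity J had 4 and 2, impurity I 3 and 2, and impurity F 3 and 2. Impurity Q had 2 and 4, impurity L 1 and 3, and impurity S 3 and 4. The part of muscle tissue in the results was not tested. Of the other markers, the endothelial receptor tek and the neuronal or photoreceptor genes arr3b and gad2 were upregulated, and no marker of exocrine pancreas, erythrocytes or leukocytes was listed for impurity R. The gene pde6g, a photoreceptor phosphodiesterase subunit outside the marker list, was downregulated. Of the intestine, no marker was listed under its symbol, but anpepa, an aminopeptidase gene named here from RefSeq (Entrez 555478), was upregulated.

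Some genes had opposite directions for impurity R and for several other compounds. In all, 35 of the 405 genes were listed in the opposite direction for at least 3 of the other 7 compounds, 11 of them upregulated and 24 downregulated for impurity R, whereas 52.3% of all its genes were upregulated. Counted in the same way, 31 genes of azithromycin and 24 to 35 genes of each other impurity had the opposite direction for at least 3 compounds, so 35 was the highest number, shared with impurity S. The actin-binding protein shroom2b was upregulated for impurity R and downregulated for all 6 other compounds that listed it, impurity J being the exception with no entry. The sulfotransferase chst1 was downregulated for impurity R and upregulated for azithromycin and impurities J, I, L and F. The peroxisomal oxidase hao2 was downregulated for impurity R and impurity L and upregulated for the other 6 compounds. The nuclear receptor coactivator ncoa6 and idh3g of the citric acid cycle were upregulated for impurity R and downregulated for the 4 other compounds that listed each. The chromatin remodeling subunit smarce1 was downregulated for impurity R and upregulated for the 4 others that listed it.

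The rest of these genes came from several functions. They included the lysine-degrading enzyme aass, the mitochondrial folate enzyme mthfd1l, the copper importer slc31a1, the chaperonin subunit cct6a, the neuropeptide adcyap1b and the transcription factor sox7. The rule counted opposite directions only, and some genes shared the impurity R direction in other compounds. Opposite and same directions numbered 3 and 0 for aass, 3 and 1 for mthfd1l, and 3 and 2 for slc31a1. The numbers were 4 and 3 for cct6a, 5 and 1 for adcyap1b, and 3 and 3 for sox7. For snrpb2 and tnnt3b they were 3 and 4. All listed directions rest on 1 library against 1 library, and no test of the difference between compounds could be made.

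**Figure D5:**
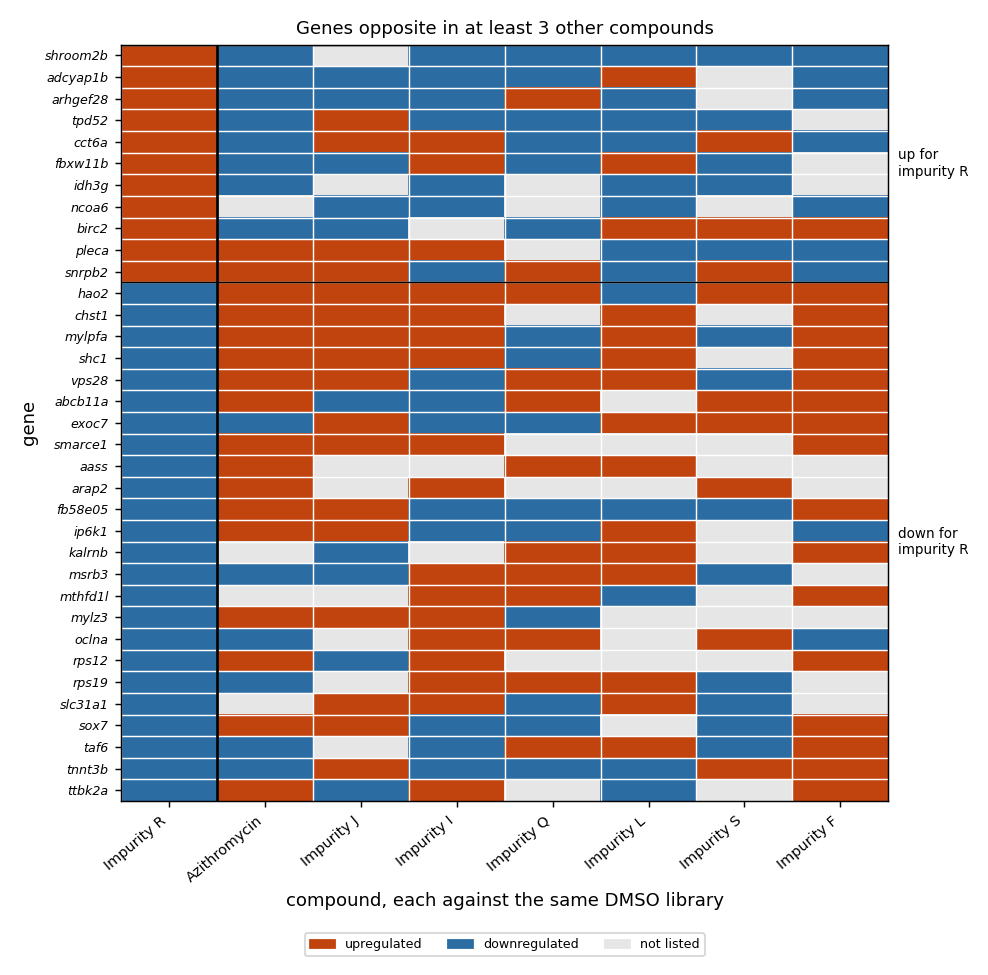
Listed direction of the 35 genes that had the opposite direction for at least 3 other compounds (rows), for impurity R in the first column and for the other 7 compounds, each against the same DMSO library. Orange marks upregulated, blue downregulated and grey not listed. The shroom2b row is orange for impurity R and blue for 6 other compounds, and the chst1 row is blue for impurity R and orange for 5.

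Genes whose symbols differ only in a final letter or number also differed in direction within the impurity R table. The cadherins cdh1 and cdh11, the phosphatases ptpra and ptprb, the transporters abcc10 and abcc1, the deadenylase subunits cnot2 and cnot7, the nucleolar genes nol9 and nol6 and the transcription factors sox6 and sox7 were each a pair of which the first was upregulated and the second downregulated. These pairs are separate genes with distinct functions, and the table gives no level by which to compare them.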

How the data were processed

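Livers of AB larvae exposed to impurity R, 7 other compounds or DMSO gave 1 RNA-seq library each. According to the submitters' processing notes, FastQC, fastp and HISAT2 and the build GRCz11 were used, and versions are not given in the sources used here. The study's methods state a fold change of at least 2 for differentially expressed genes, and a rule for downregulated genes or a test is not given there. The authors deposited, per term of KEGG, Reactome and PANTHER, the number of listed genes (counts of genes, not of reads), the number of background genes, the printed totals per database, and the genes with symbol, Entrez identifier and direction. The deposited tables also hold the authors' enrichment p-value, corrected p-value and frequency columns, which were not used. No table of the DMSO library was analysed.

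In all 8 tables the gene number equalled the genes listed, and the printed total equalled the sum over the database in 24 of 24 cases. Genes were counted once per identifier with Python 3 and pandas, and the rules were tested on simulated terms. Of 405 identifiers, 404 matched the RefSeq table (assembly GRCz12tu), which was used for names only, and 13 had no symbol in the files. Depth is unknown.

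Leading terms held at least 5 listed genes at 2 times the database share or more. One-way terms held at least 8 listed genes, at least 80% of them in 1 direction. Named were members of the gene lists, cell type markers, genes of leading, one-way and large KEGG terms, and the 15 genes in most terms. Also named were genes opposite for at least 3 other compounds. So were genes in opposite directions whose symbols differ only in a final letter or number. The members and lists were chosen with earlier results of these data known, so their counts are descriptions. Further genes (among them cox5ba, the SNARE genes, porb, cyp46a1.3 and the DNA sensors) were chosen after their directions were seen. No test, p-value or error could be had with 1 library per condition. Alternatives were single databases, 1 entry per symbol, genes listed for all 8 compounds and other term thresholds. A withheld item is not reported here.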

Additional observations from a re-analysis of the deposited data

Results flagged for a closer look

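The gene shroom2b was picked out because it was upregulated for impurity R and downregulated for all 6 other compounds that listed it. The gene chst1 was picked out because it was downregulated for impurity R and upregulated for all 5 other compounds that listed it. Neither difference was tested, since each compound had 1 library and all shared the DMSO library.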

How the results depend on the processing

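Directions were fixed by the deposited table, so no alternative could turn one round, and the alternatives changed how many genes or terms were counted. Against 212 upregulated and 193 downregulated genes in all, Reactome rows alone held 121 and 118, PANTHER rows alone 12 and 13, and genes listed for all 8 compounds 18 and 28. KEGG rows alone held 156 and 142, and 1 entry per symbol gave 206 and 186. Against 22 leading terms, 45 passed with at least 3 listed genes, 47 at 1.5 times the database share and 0 at 3 times, where no test was run. Against 8 one-way terms, 27 passed with at least 5 listed genes, 18 at 75% and 1 at 90%, which was RNA transport. Without the cytosolic ribosomal proteins, an alternative chosen after seeing the data, 7 leading and 2 one-way terms were left. The one-way terms left were RNA transport and pyrimidine metabolism, the latter with 8 listed genes, the minimum of the rule. Of 76 genes of the lists, 67 stood in KEGG rows and 41 in Reactome rows. No paired analysis was possible because each condition had 1 library. The depth is unknown and sets an unknown limit on which genes could be called.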

Other observations

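Further terms of impurity R that the report does not describe are given here with their directions. The Reactome term on ligand binding by G protein-coupled receptors listed 6 of 196 background genes, a smaller share than the 7.47% over all Reactome pairs. All 6 listed genes were upregulated, and they were adcyap1b, anxa1a, anxa1c, cysltr1, gnb3b and pth1ra. SUMOylation, the attachment of a small ubiquitin-like protein, listed 5 of 52 background genes. All 5 listed genes were upregulated (nup188, pias1b, scmh1, smc1al and xrcc4). The TGF-beta term of KEGG (6 of 85 genes, 7.06%) had 5 upregulated genes and 1 downregulated gene, rhoab. The receptor bmpr1ab and the acetyltransferase ep300a were among the upregulated genes. Every other compound also had more upregulated than downregulated genes of the TGF-beta term. Basal transcription factors (5 of 39 genes, 12.8%) had 1 upregulated gene, taf4a, and 4 downregulated genes, gtf2a1, taf1, taf6 and taf9. The Reactome term on Wnt signaling had 3 upregulated and 11 downregulated genes, the receptor lgr4, the kinase csnk1a1 and tnksb being downregulated. Its share and the counts of the other compounds are not given here, so this split cannot be read as particular to impurity R. The KEGG Wnt term listed 9 of 150 genes (6.0%, below the 6.89% of all KEGG pairs), 3 upregulated and 6 downregulated. In that KEGG term azithromycin had 7 upregulated and 5 downregulated genes. The other impurities had 5 and 7 (J), 4 and 4 (I), 4 and 4 (Q), 2 and 5 (L), 3 and 7 (S), and 1 and 3 (F). These terms were chosen after their directions were seen, and with 5 to 14 genes each they are given as values.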
